A study of Mus musculus with 9 samples.

Results

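The genes of the Wnt ligands and of their cell-surface receptors were examined during corneal development in the mouse. The 34 genes were chosen by family name, with no filter on their values but with earlier results of these data known. They comprised 19 ligands and 15 receptors of the 19369 genes listed in the series. The receptors were the 10 Frizzleds, the low-density lipoprotein receptor-related proteins Lrp5 and Lrp6, the receptor tyrosine kinases Ror1 and Ror2, and Ryk. RNA-Seq was performed on wild-type C57BL/6 embryos at 3 stages, with 3 samples per stage. The E10.5 samples held periocular neural crest (pNC), the migratory mesenchyme around the early eye, and served as the baseline. The E14.5 and E16.5 samples held whole corneas. Each sample pooled tissue from several eyes. The pNC was freed of ectoderm, lens vesicle and optic cup after dispase treatment, whereas the corneas kept their epithelium, stroma and endothelium together. Tissue type and stage therefore changed together and cannot be told apart, and in such bulk samples fewer cells of a type and less RNA per cell cannot be told apart either.

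Wnt proteins are lipid-modified secreted ligands that bind the cysteine-rich domain of Frizzled receptors. With Lrp5 or Lrp6 as co-receptor, binding stabilizes β-catenin, which acts with TCF/LEF factors on target genes, whereas Ror and Ryk receptors relay signals that do not need β-catenin, including planar cell polarity. In the developing eye, Wnt signals from the surface ectoderm and the optic cup act on the periocular mesenchyme, and Wnt activity in the ocular surface is kept within limits for corneal epithelial fate.

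Expression was read from the deposited FPKM, which scales a gene's fragments to transcript length and to the total of the sample, so that levels can be compared between genes. Stages were compared by edgeR's quasi-likelihood test on expected counts, and a gene was called where its Benjamini-Hochberg adjusted p was under 0.05 and its absolute log2 fold change at least 1. Totals of expected counts ranged from 8745161 to 9069023 per sample. Of the 34 genes, 30 passed the filter on low counts, 16 of them ligands and 14 receptors. The tissue labels were checked against marker lists. Summed FPKM of 14 surface epithelium markers was 70.1 to 105 in the pNC, 780.0 to 2358 in the E14.5 corneas and 5568 to 8100.3 in the E16.5 corneas. None of these markers was at 0 in any stage, so some epithelial RNA was present at E10.5, where Krt12, the cornea-specific keratin, stayed under 1 FPKM. The corresponding sum of 8 mesenchyme and stroma markers was 567 to 646, 2312 to 4614 and 7785 to 9788, and 4 of the 8, Col1a1, Col3a1, Lum and Kera, were called higher at either corneal stage, while Pdgfra, Pdgfrb, Twist1 and Prrx1 were not called. Skeletal muscle markers, 3 of 3, were at 0 in all corneal samples but summed to 7.21 to 7.44 FPKM at E10.5.

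The ligands and the receptors behaved differently as families. The summed FPKM of the 19 ligands was 55.4, 61.5 and 65.2 in the E10.5 samples, 563, 369.7 and 419 at E14.5 and 586, 516 and 529.8 at E16.5. Every corneal sample thus lay above every pNC sample, while the E14.5 and E16.5 ranges overlapped. The mean ligand total was 60.7 ± 4.96 (SD, n = 3), 450.5 ± 100.4 and 544 ± 37.4 FPKM in order of stage, so that the corneal means were 7.42-fold and 8.96-fold that of the pNC. The receptor total was 253 ± 19.4, 249.4 ± 18.7 and 232 ± 2.23 FPKM, and its ranges overlapped between all pairs of stages. The ratio of the ligand total to the receptor total was 0.242 ± 0.0382 in the pNC and 1.83 ± 0.550 and 2.34 ± 0.167 in the earlier and later corneas. No test was made of these sums.

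**Figure D1:**
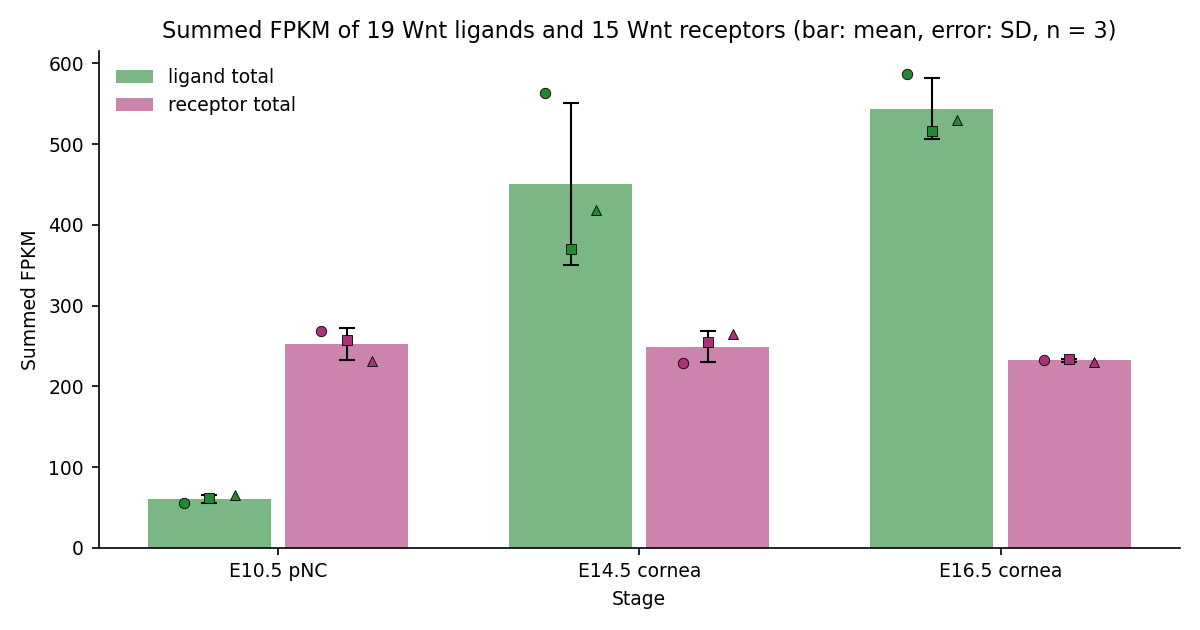
Summed FPKM of the 19 Wnt ligands (green) and the 15 Wnt receptors (purple) at each stage; bars give the mean, error bars the SD of 3 samples, and points the single samples. The ligand mean was 60.7, 450.5 and 544 FPKM in order of stage, whereas the receptor mean lay between 232 and 253 FPKM.

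Counted gene by gene, 11 of the 16 ligands tested were called higher at E14.5 than at E10.5, against 13.6% of all 14771 genes tested, and 0 were called lower, against 7.97%. At E16.5, 12 of 16 were called higher than at E10.5, against 19.4% of all genes, and 0 lower, against 15.4%. At an unadjusted p under 0.05, edgeR placed 0 ligands lower at E14.5 and 1 lower at E16.5, and DESeq2, NOISeq and limma also called 0 lower. Wnt8a and Wnt8b, with counts only at E10.5, did not pass the filter on low counts, so edgeR and DESeq2 could not call them. With no filter, edgeR called both lower at either corneal stage. Between the corneal stages, 5 ligands were higher at E16.5, against 6.26% of all genes, and 3 were lower, against 5.47%. Of the 14 receptors tested, 2 were called higher and 1 lower at E14.5, 2 higher and 4 lower at E16.5, and 1 higher and 1 lower between E14.5 and E16.5. With no minimum on the fold, 6 receptors were lower at E14.5, against 27.5% of all genes, and 3 higher, against 28.9%, while 8 were lower at E16.5, against 34.7%, and 3 higher, against 35.2%. Between the corneal stages 4 were then lower and 1 higher, against 17.5% of all genes in either direction. The median log2 fold change over the ligands tested was 2.73, 3.50 and 0.43 for the 3 comparisons in that order, and over all genes it was 0.01, 0.00 and -0.02. The comparisons with E10.5 share the same 3 baseline samples, so their counts are not independent of each other.

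**Figure D2:**
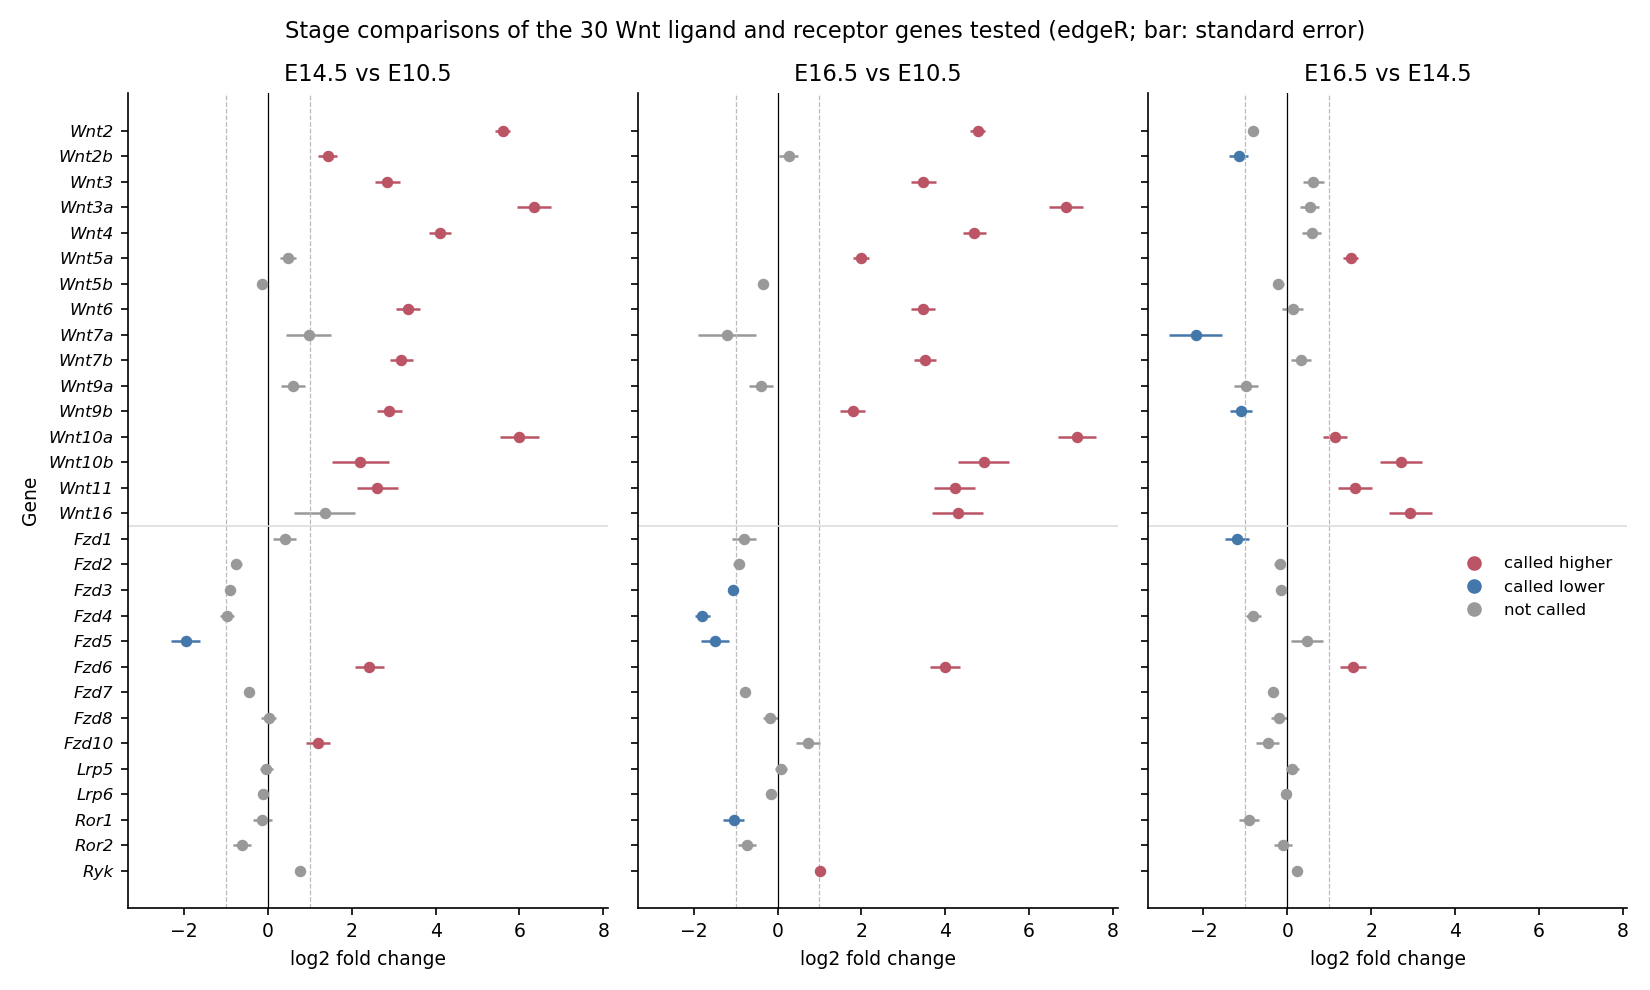
Log2 fold changes of the 30 Wnt ligand and receptor genes that passed the filter on low counts, in the 3 stage comparisons, with bars for the standard error and dashed lines at -1 and 1. Red marks genes called higher and blue genes called lower by edgeR; 12 ligands were called higher in the E16.5 cornea than in the pNC, and Fzd6 was the receptor higher in all 3 comparisons.

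Wnt4 and Wnt6, of which Wnt4 acts in epithelial and mesenchymal development of several organs and Wnt6 is made by surface ectoderm, were the most abundant ligands of the cornea. Wnt4 (Entrez Gene 22417, chr4:137277635-137299501 in GRCm38) measured 3.63, 5.90 and 7.20 FPKM at E10.5, 131, 74.9 and 86.1 at E14.5, and 141, 123 and 128 at E16.5. Wnt6 (Entrez Gene 22420, chr1:74754342-74785322) measured 7.22, 13.2 and 18.1 FPKM at E10.5, 170.5, 104 and 120.5 at E14.5, and 139, 119 and 128 at E16.5. For both genes all 6 corneal samples lay above all pNC samples, and the corneal stages overlapped. Wnt4 rose by a log2 fold change of 4.11 ± 0.27 (SE) at E14.5 (adjusted p = 8.14e-07) and 4.69 ± 0.27 at E16.5 (adjusted p = 2.04e-07). Wnt6 rose by 3.34 ± 0.29 (adjusted p = 5.81e-06) and 3.47 ± 0.29 (adjusted p = 1.78e-06) on the same scale. From E14.5 to E16.5 neither passed the test, with log2 fold changes of 0.59 ± 0.23 for Wnt4 (adjusted p = 0.068) and 0.13 ± 0.25 for Wnt6 (adjusted p = 0.724).

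The start regions of these ligands are shown beside those of Wnt2 and Wnt16, which had other time courses, so that the sequence around the start can be read with the expression pattern. Each runs 5′ to 3′ on the gene's strand from 250 bases before to 50 bases after a transcription start listed in RefSeq (GRCm38.p6). Capitals mark matches to GCCNNNGGC, the palindrome bound by AP-2 factors of neural crest and surface ectoderm. The windows lie at chr4:137277385-137277684 (plus strand) for Wnt4, chr1:74771642-74771941 (plus strand) for Wnt6, chr6:18030396-18030695 (minus strand) for Wnt2 and chr6:22287977-22288276 (plus strand) for Wnt16.
Wnt4: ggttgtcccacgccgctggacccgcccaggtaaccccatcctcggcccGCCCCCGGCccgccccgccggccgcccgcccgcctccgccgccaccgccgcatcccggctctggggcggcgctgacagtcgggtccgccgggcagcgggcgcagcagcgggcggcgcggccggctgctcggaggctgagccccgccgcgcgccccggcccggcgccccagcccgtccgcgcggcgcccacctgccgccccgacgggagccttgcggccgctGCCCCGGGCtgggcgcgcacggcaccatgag
Wnt6: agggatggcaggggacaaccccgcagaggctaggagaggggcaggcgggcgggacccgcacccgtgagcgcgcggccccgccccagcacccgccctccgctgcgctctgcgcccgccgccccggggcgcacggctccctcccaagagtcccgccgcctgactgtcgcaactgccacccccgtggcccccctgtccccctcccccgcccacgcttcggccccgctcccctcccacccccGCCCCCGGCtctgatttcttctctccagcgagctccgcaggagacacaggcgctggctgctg
Wnt2: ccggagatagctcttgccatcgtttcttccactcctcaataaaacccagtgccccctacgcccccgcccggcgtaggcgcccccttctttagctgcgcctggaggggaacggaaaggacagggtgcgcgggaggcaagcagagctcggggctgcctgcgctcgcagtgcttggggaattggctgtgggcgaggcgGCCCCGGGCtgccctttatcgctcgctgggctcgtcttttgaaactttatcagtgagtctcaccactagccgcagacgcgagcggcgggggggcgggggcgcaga
Wnt16: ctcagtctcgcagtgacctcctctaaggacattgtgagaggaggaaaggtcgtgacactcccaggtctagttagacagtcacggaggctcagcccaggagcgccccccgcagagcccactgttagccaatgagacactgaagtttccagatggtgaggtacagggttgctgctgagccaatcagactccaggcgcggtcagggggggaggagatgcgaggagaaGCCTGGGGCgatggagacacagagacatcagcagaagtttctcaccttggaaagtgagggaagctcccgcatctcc
The Wnt4 window held 2 matches, which began 202 bases before and at base 20 after the start. The other windows held 1 match each, beginning 12 bases before the start in Wnt6, 55 in Wnt2 and 26 in Wnt16. These 4 do not stand for all ligands, since 11 of 18 ligand windows held a match. Wnt2b and Wnt9b, which like Wnt2 were highest at E14.5, had none. The 4 windows differed in base composition, with a GC content of 84.3% for Wnt4, 76.7% for Wnt6, 65.7% for Wnt2 and 58.0% for Wnt16.

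Wnt7b, Wnt10a, Wnt3 and Wnt3a also rose by E14.5 and stayed up. Wnt7b, a ligand of several embryonic epithelia, measured 6.96, 7.55 and 3.09 FPKM at E10.5, 63.4, 45.4 and 53.1 at E14.5, and 70.2, 56.3 and 55.5 at E16.5. It rose by a log2 fold change of 3.19 ± 0.27 at E14.5 (adjusted p = 4.87e-06) and 3.52 ± 0.27 at E16.5 (adjusted p = 1.04e-06), and its corneal stages overlapped. Wnt10a, which is required for teeth, hair and other ectodermal organs, measured 0.17, 0.56 and 0.80 FPKM at E10.5, 52.4, 22.1 and 25.9 at E14.5, and 77.7, 61.5 and 58.3 at E16.5. The 3 stages of Wnt10a did not overlap. Its log2 fold change was 6.00 ± 0.46 at E14.5 (adjusted p = 2.70e-06) and 7.14 ± 0.45 at E16.5 (adjusted p = 3.41e-07). Wnt10a also rose between the corneal stages, by 1.14 ± 0.28 (adjusted p = 0.0107). Without E14.5 replicate 2 that value was 0.90 and without replicate 3 it was 0.999, both no longer called, and without replicate 1 it was 1.61. The call was also lost without TMM factors for library scaling (0.974), by NOISeq (0.975) and by limma on log2(FPKM + 0.1) (1.07, adjusted p = 0.0768).

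Wnt3 and Wnt3a, closely related ligands that signal through β-catenin, moved together. Wnt3 measured 0.78, 1.27 and 1.99 FPKM at E10.5, 13.4, 7.70 and 8.41 at E14.5, and 14.96, 13.7 and 12.1 at E16.5. Wnt3a measured 0.04, 0.08 and 0.20 FPKM at E10.5, 13.1, 7.18 and 7.36 at E14.5, and 13.2, 10.8 and 11.8 at E16.5. All corneal samples exceeded all pNC samples, and E14.5 replicate 1 reached into the E16.5 range for both genes. Wnt3 rose by a log2 fold change of 2.85 ± 0.30 at E14.5 (adjusted p = 2.16e-05) and 3.48 ± 0.29 at E16.5 (adjusted p = 2.04e-06). Wnt3a rose by 6.35 ± 0.41 (adjusted p = 7.83e-07) and 6.88 ± 0.40 (adjusted p = 2.07e-07), from a baseline of only 1, 2 and 5 expected counts, so the size of its fold is poorly fixed. Without E10.5 replicate 3 these values were 7.14 and 7.67. Neither gene passed the test between the corneal stages, at 0.62 ± 0.24 for Wnt3 and 0.53 ± 0.23 for Wnt3a.

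Wnt2, Wnt9b and Wnt2b had their highest level at E14.5. Wnt2, a ligand of lung mesenchyme, measured 0.68, 1.10 and 0.59 FPKM at E10.5, 34.9, 42.1 and 40.1 at E14.5, and 19.8, 17.9 and 21.4 at E16.5. The 3 stages were well separated, with E16.5 between the others. Wnt2 rose by a log2 fold change of 5.60 ± 0.18 at E14.5 (adjusted p = 1.37e-08) and stood 4.77 ± 0.18 above E10.5 at E16.5 (adjusted p = 2.57e-08). From E14.5 to E16.5 its log2 fold change was -0.83 ± 0.12, with an adjusted p of 0.00107 but a size short of the minimum of 1. Its E14.5 mean was 39.0 ± 3.70 FPKM.

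Wnt9b, a ligand of kidney tubules and facial ectoderm, measured 1.27, 3.48 and 3.81 FPKM at E10.5, 18.0, 22.4 and 24.1 at E14.5, and 8.16, 8.60 and 9.92 at E16.5. It rose by a log2 fold change of 2.90 ± 0.29 by E14.5 (adjusted p = 1.74e-05) and then fell by 1.11 on that scale (SE 0.26, adjusted p = 0.00858), which left it 1.79 ± 0.29 above E10.5. Wnt2b, a ligand of the ciliary margin and periocular tissue, measured 5.05, 4.54 and 3.63 FPKM at E10.5, 8.18, 11.8 and 15.7 at E14.5, and 4.71, 4.85 and 4.76 at E16.5. The E14.5 samples of both genes lay above all others, whereas the E10.5 and E16.5 samples overlapped for Wnt2b only. Wnt2b rose by 1.43 ± 0.22 at E14.5 (adjusted p = 3.06e-04) and fell by 1.16 at E16.5 (SE 0.22, adjusted p = 0.0029). Without E14.5 replicate 3, the highest sample, the later fold change was -0.89 and was no longer called.

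Wnt5a, Wnt11, Wnt10b and Wnt16 were highest at E16.5. Wnt5a, the main ligand of Ror receptors in morphogenesis, measured 13.7, 8.04 and 11.8 FPKM at E10.5, 19.9, 13.4 and 13.2 at E14.5, and 36.5, 43.9 and 40.7 at E16.5. Its pNC and E14.5 samples overlapped, and all E16.5 samples lay above them. The log2 fold change was 0.48 ± 0.19 at E14.5, not called, and Wnt5a rose by 1.51 ± 0.18 from E14.5 to E16.5 (adjusted p = 5.42e-04) and by 1.99 ± 0.19 over the whole interval (adjusted p = 4.33e-06). Wnt11, another ligand linked to cell movement and polarity, measured 1.67, 1.89 and 1.82 FPKM at E10.5, 21.0, 4.23 and 8.21 at E14.5, and 29.0, 30.7 and 31.6 at E16.5. The 3 stages did not overlap, but E14.5 spread widely. Wnt11 rose by 2.61 ± 0.49 at E14.5 (adjusted p = 0.00109), by 1.62 ± 0.40 from there to E16.5 (adjusted p = 0.0106) and by 4.23 ± 0.49 in all (adjusted p = 1.81e-05). Without E14.5 replicate 1, its highest sample of that stage, the first and second values were 1.79 and 2.44, both still called.

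Wnt10b, a β-catenin ligand of skin appendages, measured 0.15, 0.49 and 0.75 FPKM at E10.5, 4.47, 1.0 and 1.04 at E14.5, and 16.8, 10.46 and 10.8 at E16.5. Wnt16, a ligand of skin and bone, measured 0.60, 0.33 and 0.34 FPKM at E10.5, 2.62, 0.34 and 0.41 at E14.5, and 7.60, 7.52 and 7.96 at E16.5. The E16.5 samples of both genes exceeded every earlier sample, while E14.5 replicate 1 stood above its 2 companions. From E14.5 to E16.5 Wnt10b rose by a log2 fold change of 2.71 ± 0.49 (adjusted p = 0.00244) and Wnt16 by 2.94 ± 0.52 (adjusted p = 0.00216). From E10.5 to E16.5 the rises were 4.91 ± 0.61 (adjusted p = 3.06e-05) and 4.29 ± 0.60 (adjusted p = 7.51e-05). The E14.5 value of both genes depended strongly on E14.5 replicate 1. With all samples Wnt10b was called higher at E14.5 (2.20 ± 0.68, adjusted p = 0.0179) and Wnt16 was not (1.35 ± 0.72, adjusted p = 0.132). Without E14.5 replicate 1 the values were 1.13 (adjusted p = 0.0734) for Wnt10b and -0.19 for Wnt16. The later rises of the genes were then 3.78 and 4.48. The E14.5 call of Wnt10b was also lost without E10.5 replicate 1 (1.78, adjusted p = 0.0658) or replicate 2 (2.24, adjusted p = 0.05002). NOISeq and limma on log2(FPKM + 1) did not make it either.

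**Figure D3:**
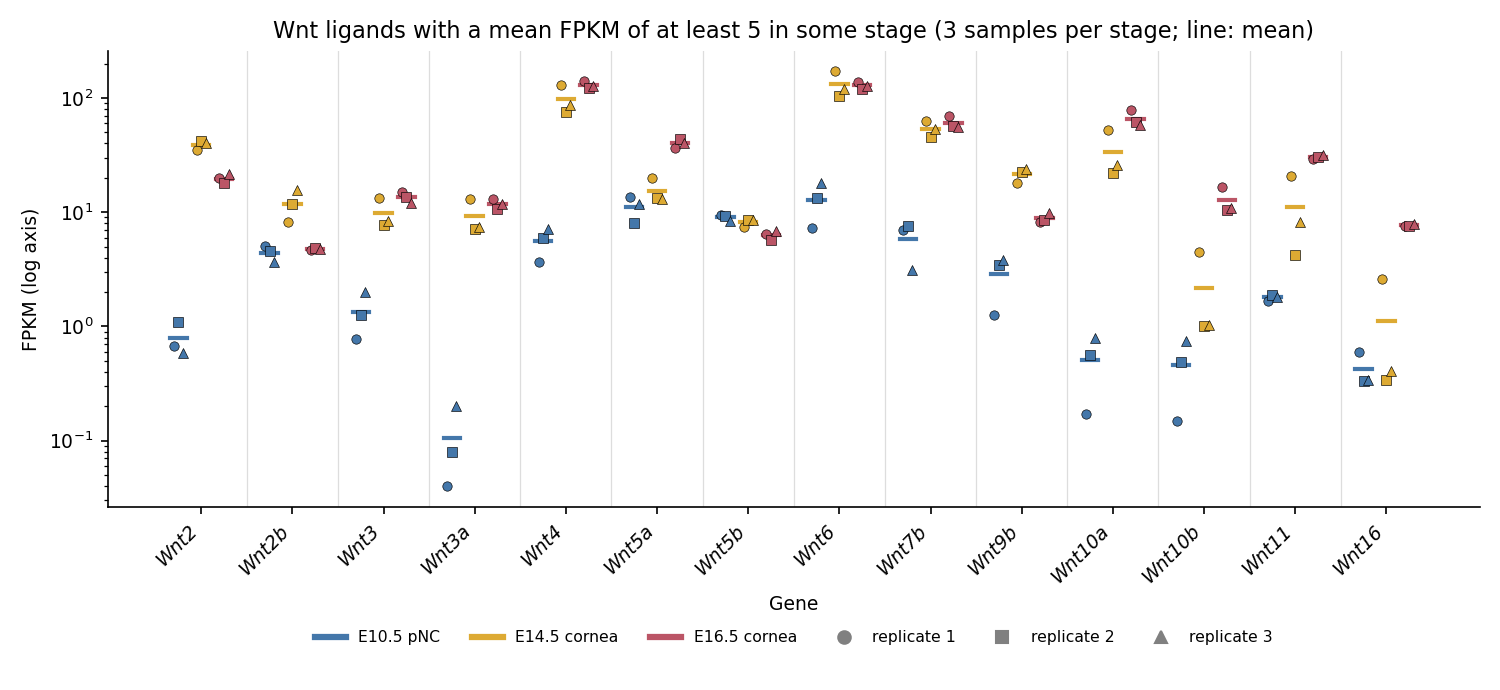
FPKM on a log axis of the 14 Wnt ligands with a stage mean of at least 5, with points for the 3 samples of each stage, symbols for the replicate number and lines for the mean. Wnt4 and Wnt6 lie at or above 74.9 FPKM in every corneal sample, Wnt2 peaks at E14.5 and Wnt16 departs from its pNC level in all 3 samples only at E16.5.

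Wnt5b was the ligand above 5 FPKM that was called in no comparison. Wnt5b, the close relative of Wnt5a, measured 9.43, 9.24 and 8.41 FPKM at E10.5, 7.41, 8.56 and 8.59 at E14.5, and 6.43, 5.69 and 6.85 at E16.5. All E16.5 samples lay below all others, with a log2 fold change of -0.34 ± 0.12 from E10.5 (adjusted p = 0.0289). Of the ligands whose stage means stayed under 5 FPKM, Wnt9a measured 1.72 to 5.21 FPKM over the 9 samples and was called in none of the comparisons, and Wnt7a measured at most 0.81 FPKM and was called lower at E16.5 than at E14.5 (log2 fold change -2.18 ± 0.63, adjusted p = 0.0219) on 2 to 23 expected counts per sample. Wnt1 had 1 expected count in 1 E16.5 sample and was at 0 elsewhere. Wnt8b, a forebrain ligand, had 25, 14 and 5 expected counts at E10.5 and none in any cornea, which is at least 4.89-fold lower against a floor of 3 counts per library. Wnt8a had 2, 2 and 3 counts at E10.5 and none in the corneas, too few for a fold. Neither passed the filter on low counts, and both were called lower in the corneas where no filter was set.

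The make-up of the ligand total changed with stage. At E10.5 Wnt6 held 20.8% ± 7.40 of summed ligand FPKM, Wnt5a 18.6% ± 5.84, Wnt5b 14.98% ± 2.06, Wnt7b 9.86% ± 4.44 and Wnt4 9.06% ± 2.29. At E14.5 Wnt6 and Wnt4 together held 50.4% ± 2.78, followed by Wnt7b with 12.1%, Wnt2 with 9.05% and Wnt10a with 7.16%. At E16.5 Wnt4 and Wnt6 held 47.7% ± 0.725, followed by Wnt10a with 12.1%, Wnt7b with 11.1% and Wnt5a with 7.47%. Wnt5a and Wnt5b, whose FPKM did not fall by E14.5 beyond the spread of samples, dropped in share to 3.43% and 1.89% there. In the order of FPKM, neighbours could not always be separated. The ranges of Wnt6 and Wnt4 overlapped at both corneal stages, as did those of Wnt6 and Wnt5a at E10.5, whereas Wnt4 and Wnt7b were apart at E14.5 and Wnt6 and Wnt10a were apart at E16.5. Of the 19 ligands, 5 had a mean of at least 5 FPKM in the pNC, 12 in the E14.5 cornea and 13 in the E16.5 cornea.

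**Figure D4:**
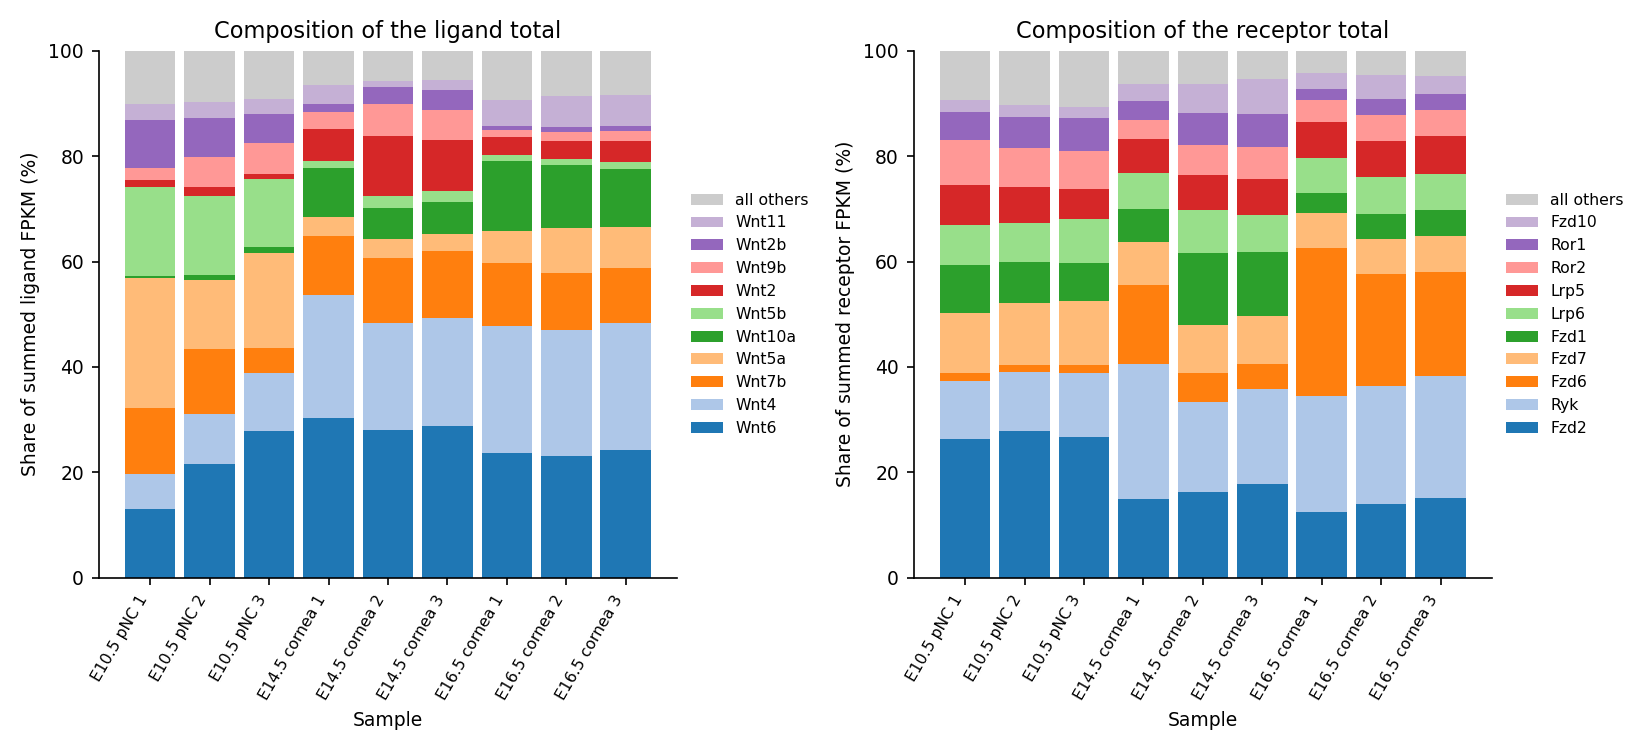
Share of summed ligand FPKM (left) and summed receptor FPKM (right) held by each named gene in each of the 9 samples; the 10 genes with the largest shares are coloured and the rest are grey. Wnt4 and Wnt6 together held 50.4% of ligand FPKM at E14.5, and Fzd6 grew from 1.48% to 23.1% of receptor FPKM between E10.5 and E16.5.

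Several Wnt genes are neighbours in the genome, and neighbours were compared side by side. Wnt6 and Wnt10a lie on the same strand of chromosome 1 with 6696 bases between them, and both rose at E14.5 and E16.5, although Wnt6 was 25.2-fold the level of Wnt10a at E10.5 and 1.956-fold at E16.5 by mean FPKM. Wnt9b and Wnt3 lie on opposite strands of chromosome 11 and their annotated spans overlap by 1098 bases. Both rose by E14.5, and then Wnt9b fell while Wnt3 was not called. Reads of the overlap cannot be assigned with certainty, because a strand setting for the counting is not given in the sources used here. Wnt3a and Wnt9a, 16097 bases apart on chromosome 11, differed, since Wnt3a rose in both corneal stages and Wnt9a was called in neither. Wnt10b rose, whereas Wnt1, 11650 bases away on chromosome 15, was at 0 in 8 of 9 samples. No 50-base stretch of transcript was shared by any of the 561 pairs of the 34 genes.

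Close relatives by sequence family also diverged. Wnt2 stood 3.28-fold above Wnt2b at E14.5 but 5.58-fold below it at E10.5 by mean FPKM. Wnt7b was abundant where Wnt7a was at or under 0.81 FPKM, and Wnt10a exceeded Wnt10b at both corneal stages, by 15.4-fold and 5.19-fold. Wnt3 and Wnt3a were alike in the corneas, with ratios of the means of 1.07 and 1.14 in order of stage. Among the Frizzleds, Fzd6 rose in all 3 comparisons while its relative Fzd3 was called lower at E16.5.

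Fzd6, which acts in planar polarity of skin and hair, was the receptor that rose most. It measured 4.09, 3.80 and 3.33 FPKM at E10.5, 34.4, 14.02 and 12.7 at E14.5, and 65.3, 49.7 and 45.5 at E16.5, so that the stages did not overlap. Its log2 fold change was 2.42 ± 0.35 at E14.5 (adjusted p = 1.89e-04), 3.99 ± 0.36 at E16.5 (adjusted p = 3.03e-06) and 1.56 ± 0.31 between the corneal stages (adjusted p = 0.00388). Without E14.5 replicate 1 the first and last of these were 1.83 and 2.16, still called. Fzd6 ranked 13 of 15 receptors at E10.5 and first at E16.5, where its range overlapped that of Ryk. Fzd10, a β-catenin receptor, measured 6.23, 6.03 and 4.73 FPKM at E10.5, 7.67, 14.1 and 17.6 at E14.5, and 6.98, 10.7 and 7.84 at E16.5. It rose by 1.202 ± 0.28 at E14.5 (adjusted p = 0.00407), and without E14.5 replicate 3, its highest sample, the value was 0.91 and no longer called.

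Fzd2, Fzd7 and Fzd1, which form a sequence family and are broadly expressed in mesenchyme, led the Frizzleds of the pNC. Fzd2 measured 70.8, 71.9 and 61.8 FPKM at E10.5, 34.1, 41.4 and 46.9 at E14.5, and 28.9, 33.0 and 34.8 at E16.5. Fzd7 measured 30.4, 30.2 and 28.3 FPKM at E10.5, 18.5, 23.4 and 24.2 at E14.5, and 15.3, 15.5 and 15.8 at E16.5. All corneal samples of both genes lay below all pNC samples, yet neither reached the minimum fold. The log2 fold change at E16.5 was -0.93 ± 0.13 for Fzd2 (adjusted p = 7.61e-05) and -0.78 ± 0.10 for Fzd7 (adjusted p = 5.52e-05). For Fzd2 the side of the threshold depended on library scaling, since its value was -1.08 and called lower without TMM factors. Leaving these factors out moved the median of all genes by -0.15 in that comparison and by -0.16 between the corneal stages. Fzd1 measured 24.6, 20.0 and 16.6 FPKM at E10.5, 14.3, 34.9 and 32.3 at E14.5, and 8.78, 11.3 and 11.4 at E16.5. E14.5 replicate 1 was well below its companions for Fzd1, and all E16.5 samples were the lowest. Fzd1 fell by 1.21 on the log2 scale from E14.5 to E16.5 (SE 0.29, adjusted p = 0.00864) and was not called against E10.5.

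Fzd3, Fzd4 and Fzd5 were called lower at E16.5 than at E10.5. Fzd3, which guides axons and polarity, measured 9.34, 9.41 and 9.59 FPKM at E10.5, 4.86, 5.97 and 4.41 at E14.5, and 4.54, 3.78 and 3.94 at E16.5. Fzd4, a receptor of vascular development in the retina, measured 9.06, 8.95 and 9.93 FPKM at E10.5, 3.66, 5.24 and 5.41 at E14.5, and 2.10, 2.41 and 2.76 at E16.5. Both genes were separated between pNC and cornea in all samples. Fzd3 fell by 1.06 on the log2 scale at E16.5 (SE 0.11, adjusted p = 6.60e-06) and Fzd4 by 1.79 (SE 0.17, adjusted p = 4.85e-06), and at E14.5 their values of -0.91 and -0.98 were just short of the minimum. Of 5 blood vessel endothelium markers, 4 were called lower in each of the 3 comparisons, while Fzd4 was called only at E16.5 against E10.5. The sum of all 5 was 95.8 to 149 FPKM in the pNC, 42.2 to 76.9 in the E14.5 corneas and 22.5 to 34.1 in the E16.5 corneas. Kdr, called in no comparison, made up 21.7 to 29.3 FPKM of the E16.5 sum. From E14.5 to E16.5 the log2 fold changes of the other 4 were -3.33 to -3.02, and that of Fzd4 was -0.81 ± 0.18. The part of vessels in the Fzd4 result was not tested. Markers of glia and neurons were also lower as a sum in the corneas than in the pNC. They summed to 97.3 to 161 FPKM in the pNC and 8.19 to 9.86 in the E16.5 corneas, with a mean of 10.9 ± 2.71 at E14.5. None of the 5 was at 0 throughout a stage, and 4 of them were called lower at E14.5 and 3 at E16.5. Between the corneal stages 0 of the 5 were called. Within E10.5, replicate 3 was the highest sample for Fzd3 and Fzd4. The same sample was the lowest for 4 of the 5 glia and neuron markers and for all 5 vessel markers. The part of glia and neurons was not tested. Fzd5, a receptor of the optic cup and retina, measured 0.79 to 2.20 FPKM at E10.5 and at most 0.59 in the corneas. It was called lower at E14.5 (-1.96 ± 0.34) and at E16.5 (-1.49 ± 0.34), but NOISeq and limma on log2(FPKM + 1) made neither call. The lowest pNC sample of Fzd5 was replicate 3, also the lowest for 5 of 6 optic cup and pigment epithelium markers. The part of that tissue in the Fzd5 values was not tested. Fzd8 measured 2.65 to 5.15 FPKM over all samples and was called in no comparison. Fzd9 reached 1.10 FPKM in 1 pNC sample, was lower in all others, and did not pass the filter on low counts. With no filter, edgeR called Fzd9 lower than at E10.5 at E14.5 (-2.13, adjusted p = 0.0146) and at E16.5 (-3.075, adjusted p = 0.0026). Limma on log2(FPKM + 0.1) called it lower at both stages too, while NOISeq did not. It had at most 21 expected counts in a sample.

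**Figure D5:**
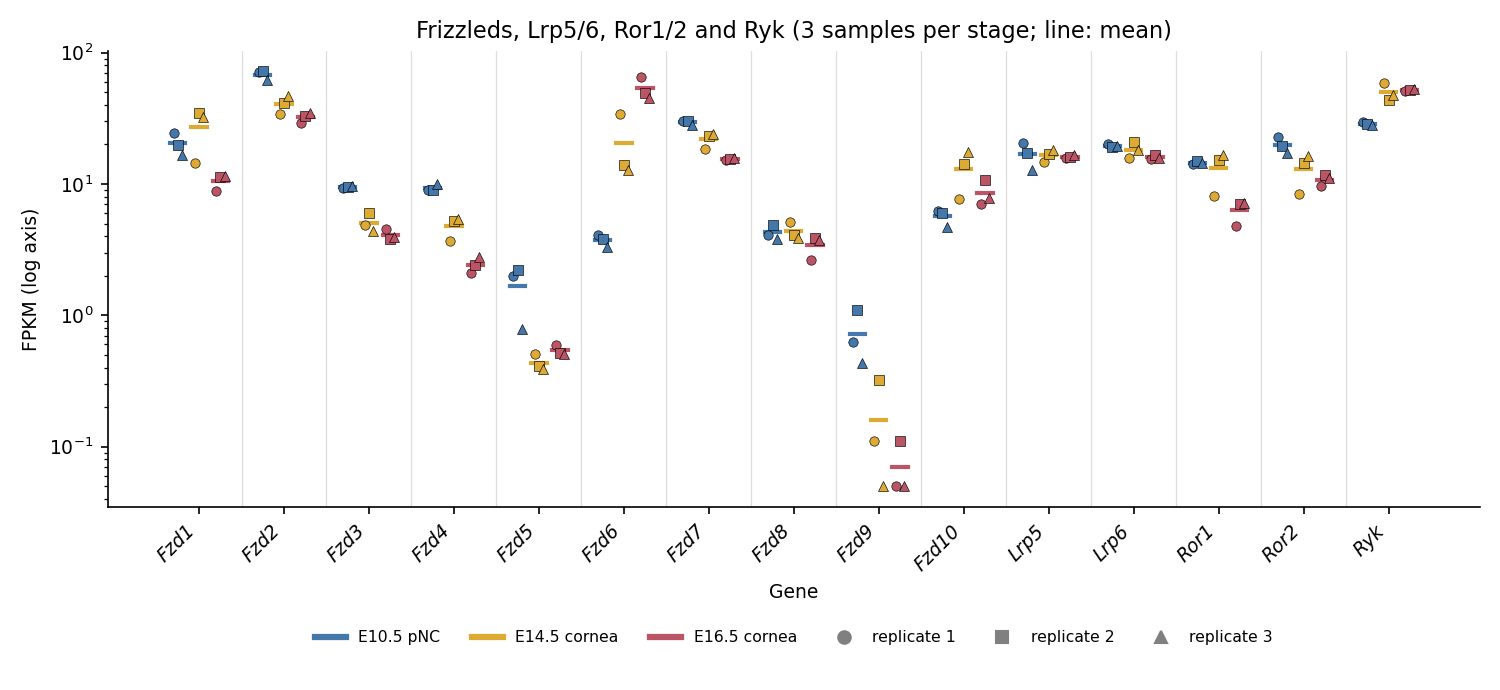
FPKM on a log axis of the 10 Frizzleds, Lrp5, Lrp6, Ror1, Ror2 and Ryk, with points for the 3 samples of each stage, symbols for the replicate number and lines for the mean. Fzd6 is at most 4.09 FPKM at E10.5 and at least 45.5 at E16.5, Fzd2 leads the pNC with 61.8 FPKM or more, and Lrp5 and Lrp6 lie between 12.8 and 20.8 FPKM in all samples.

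The co-receptors of the β-catenin branch had similar levels at all stages. Lrp5 measured 20.7, 17.3 and 12.8 FPKM at E10.5, 14.7, 17.0 and 18.1 at E14.5, and 15.8, 16.1 and 16.6 at E16.5. Lrp6 measured 20.0, 19.3 and 19.4 FPKM at E10.5, 15.7, 20.8 and 18.2 at E14.5, and 15.5, 16.54 and 15.7 at E16.5. Neither was called in any comparison, with log2 fold changes of -0.04 to 0.12 for Lrp5 and -0.15 to -0.03 for Lrp6, and the sign of the Lrp5 values changed with the library scaling.

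The receptors of the branch without β-catenin moved in different directions. Ryk, an atypical kinase-like Wnt receptor, measured 29.8, 28.7 and 28.1 FPKM at E10.5, 58.5, 43.6 and 47.7 at E14.5, and 51.1, 52.3 and 53.1 at E16.5. Its corneal samples all exceeded its pNC samples. The log2 fold change was 0.78 ± 0.10 at E14.5, short of the minimum, and 1.002 ± 0.10 at E16.5 (adjusted p = 8.55e-06). The E16.5 call had a narrow margin and was lost without TMM factors (0.85), by NOISeq and by both limma settings. It was also lost without E10.5 replicate 2 or 3 or E16.5 replicate 2 or 3 (0.977 to 0.995). Ror1 measured 14.2, 14.8 and 14.4 FPKM at E10.5, 8.10, 15.3 and 16.7 at E14.5, and 4.82, 7.02 and 7.11 at E16.5, and it fell by 1.05 on the log2 scale at E16.5 (SE 0.24, adjusted p = 0.00275). Without E16.5 replicate 1, its lowest sample, that value was -0.88 and not called. Ror2 measured 22.9, 19.4 and 17.1 FPKM at E10.5, 8.40, 14.4 and 16.2 at E14.5, and 9.66, 11.6 and 11.1 at E16.5. All corneal samples of Ror2 lay below the pNC samples, with log2 fold changes of -0.62 ± 0.21 and -0.73 ± 0.21 that did not reach the minimum. By E16.5 the mean level of Wnt5a was 40.4 FPKM, while those of Ror1 and Ror2 were 6.32 and 10.8.

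Within the receptor total, Fzd2 held 27.0% ± 0.803 at E10.5, Fzd7 11.8% and Ryk 11.5%. At E16.5 Fzd6 held 23.1% ± 4.47, Ryk 22.5% and Fzd2 13.9%, and the ranges of Fzd6 and Ryk overlapped while Fzd2 lay below both. Frizzled FPKM summed to 153 ± 11.9, 138 ± 13.2 and 131 ± 4.41 by stage, and that of the other 5 receptors to 99.6 ± 7.93, 111 ± 5.77 and 101 ± 3.92.

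The samples of a stage did not order the genes alike. E14.5 replicate 1 was the highest of its stage for 10 of the 16 ligands tested (Wnt3, Wnt3a, Wnt4, Wnt5a, Wnt6, Wnt7b, Wnt10a, Wnt10b, Wnt11 and Wnt16) and the lowest for the other 6, against 40.2% and 37.9% of all genes. Among the 14 receptors it was the highest for Fzd5, Fzd6, Fzd8 and Ryk and the lowest for 9. The same sample had the highest sum of the surface epithelium markers, 2358 FPKM against 780.0 and 904, and it was the highest for 12 of these 14 markers. Of the 8 mesenchyme and stroma markers it was the highest for Col1a1, Lum and Kera and the lowest for the other 5. The part of these tissues in the ligand values was not tested. With that sample left out, 10 ligands were called higher at E14.5 than at E10.5 in place of 11, and Wnt10b was the call lost. The mean ligand total at E14.5 was then 394 FPKM. At E16.5 the epithelium marker sum was 2.36-fold or more that of every E14.5 sample. Of its 14 markers, 6 were called higher than at E14.5 (Krt5, Krt12, Krt14, Krt15, Krt19 and Perp), 0 lower and 8 not called. Epcam, not called, had a log2 fold change of -0.43 ± 0.10 (adjusted p = 0.0076). Of the ligands, 5 were called higher at E16.5 than at E14.5 (Wnt5a, Wnt10a, Wnt10b, Wnt11 and Wnt16) and 3 lower (Wnt2b, Wnt7a and Wnt9b).

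At E10.5, replicate 1 was the lowest and replicate 3 the highest for Wnt3, Wnt3a, Wnt4, Wnt6, Wnt9b, Wnt10a and Wnt10b, which is 7 of 16 ligands against 21.3% of all genes tested. Of the 14 surface epithelium markers, 6 had the same order (Krt14, Krt15, Cdh1, Trp63, Grhl2 and Perp), and the other 8 were highest in replicate 2. Trp63, a transcription factor of surface epithelium, measured 2.64, 6.06 and 9.03 FPKM in the order of replicates. E10.5 replicate 3 was the lowest of its stage for 5 of the 16 ligands tested and for 10 of the 14 receptors, against 39.6% of all genes. It was also the lowest for 5 of the 6 optic cup and pigment epithelium markers, with 0.61 FPKM against 5.24 and 6.63 for Rax, and for all 5 blood vessel markers and 4 of the 5 markers of glia and neurons. The part of these tissues in the Wnt gene values was not tested.

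The other genes of the pathway were counted from lists drawn up by role. Counts of called genes are to be read against the 13.6% of all genes called higher and 7.97% called lower at E14.5. At E16.5 these shares were 19.4% and 15.4%. For the looser counts at an unadjusted p, the share of all genes was not counted. It is at least the share at an adjusted p under 0.05 with no fold minimum. That share was 28.9% higher and 27.5% lower at E14.5, and 35.2% and 34.7% at E16.5. Between the corneal stages it was 17.5% in either direction. Of 2 secretion genes, Wls, the carrier that brings Wnt proteins to the cell surface, rose by a log2 fold change of 1.07 ± 0.08 at E14.5 (adjusted p = 2.44e-06) and 1.13 ± 0.08 at E16.5 (adjusted p = 7.19e-07), from a mean of 63.3 to 135 and 126 FPKM. Its E16.5 call was made by edgeR and DESeq2 but not by NOISeq or limma. Of 5 genes of receptor turnover and R-spondin response, 3 were called higher and 1 lower in both comparisons with E10.5. Rnf43, a ligase that removes Frizzleds from the surface, rose by 2.28 ± 0.14 and 2.85 ± 0.14, and Lgr4, an R-spondin receptor, by 1.32 ± 0.14 and 1.29 ± 0.14, whereas Lgr5 fell by 2.20 and 3.53, which NOISeq did not call and limma on log2(FPKM + 1) called at E16.5 only. Of 9 cytoplasmic transducers, which include the Dvl, Axin1 and Ctnnb1 genes, edgeR called 0 in all 3 comparisons, as did DESeq2, NOISeq and limma. At an unadjusted p under 0.05 and any size of change, 4 of them were higher and 2 lower at E14.5, 3 higher and 2 lower at E16.5, and 2 higher and 1 lower between the corneal stages.

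Of 8 nuclear effectors, edgeR and the other tools called 0 at E14.5, where 4 were higher and 0 lower at an unadjusted p under 0.05. Lef1 and Bcl9l rose at E16.5 relative to E10.5, by 1.11 ± 0.10 and 1.13 ± 0.14, and Tcf7 fell by 1.14 from E14.5 to E16.5. NOISeq and limma called neither rise, and NOISeq did not call the fall. Of 8 target and feedback genes, 3 were called higher and 2 lower at E14.5, 1 higher and 1 lower at E16.5, and 2 lower between the corneal stages. The E16.5 shares were below those of all genes, but rest on 1 call in each direction. At an unadjusted p under 0.05 and any size of change, edgeR placed 5 higher and 2 lower at E14.5. It placed 3 higher and 2 lower at E16.5, and 2 higher and 4 lower between the corneal stages. Axin2, a feedback gene, was higher at both corneal stages than at E10.5. Its log2 fold changes were 0.86 ± 0.11 and 0.99 ± 0.11, short of the minimum. Apcdd1, a membrane inhibitor of Wnt signalling, rose by 1.88 ± 0.17 and 2.53 ± 0.17 against E10.5, and Nkd2, a feedback antagonist, rose by 1.49 ± 0.24 at E14.5 and fell by 1.15 from there to E16.5. Ccnd1, a cell cycle gene with many inputs besides Wnt, fell by 3.43 and 4.14. Of 12 planar polarity genes, 2 were called higher and 1 lower at E14.5, and 3 higher and 1 lower at E16.5, which is within 1 gene of the share of all genes or below it. Celsr1, an atypical cadherin of epithelial polarity, rose by 2.77 ± 0.27 and 3.47 ± 0.28, and Prickle3 by 1.01 ± 0.16 and 1.76 ± 0.16. The E14.5 call of Prickle3 was not made by DESeq2, NOISeq or limma on log2(FPKM + 1). Between the corneal stages edgeR, DESeq2, NOISeq and limma each called 0 genes of the secretion, turnover and polarity lists. At an unadjusted p under 0.05, edgeR then placed 0, 2 and 4 of them higher and 0, 2 and 1 lower, in that order of lists.

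Start regions of the family were described for the 24 genes with an entry in the set of transcription starts used here, which gave 27 windows of the kind shown above. GCCNNNGGC, searched on both strands, was found in 14 of the 27 windows (51.9%) and in 16.6% of all 32851 windows of that length, and in 11 of 18 ligand windows. In 5 of the 27 windows a match overlapped a GC box (GGGCGG on either strand), which itself was in 81.5% of the windows and in 35.7% of all windows. The TCF/LEF letters CTTTGAT were in 7.41% of the windows, those of Wnt11 and Wnt5b, against 3.73% of all, and CTTTGAA was in 0 of 27, against 5.14%. TATAAA was in 11.1% of the windows against 13.6% of all. The median GC content was 71.3% for these windows and 52.7% for all windows. These are matches of letters, and no binding was measured.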

How the data were processed

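Each of the 9 samples had a gene table holding an expected count and an FPKM value by Entrez Gene identifier. Per the methods and the submitters' processing notes, the authors mapped reads with Bowtie2 and HISAT to GRCm38 and quantified genes with RSEM, whose versions are not given in the sources used here. The deposited expected counts are RSEM estimates and not normalized, and the deposited FPKM were scaled by the authors to transcript length and library total. Only genes above 0 were listed, from 0.01 FPKM, and a gene absent from a sample was taken as 0. Symbols were found for 19312 of 19369 identifiers in RefSeq.

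Stages and replicate numbers came from the sample labels. Expected counts were rounded, filtered with filterByExpr by stage, scaled with TMM and fitted in 1 quasi-likelihood model of stage with edgeR 4.0.16 in R 4.3.3, with DESeq2 1.42.0, limma 3.58.1 (log2 of FPKM plus 0.1 or 1) and a recomputed NOISeq probability as alternatives. NOISeq, the study's own method, has no model of replicates. Standard errors were derived from the fold change and the F statistic. Levels, sums and shares used Python 3.11.15 with pandas 2.3.3. Per-sample values were given for genes with a mean of at least 5 FPKM in some stage, and at most 3 called genes per pathway list were named by highest FPKM. Axin2, which was not called, was given in addition because it lay just short of the minimum fold. The scripts were tested on simulated data. Counting error is small for all but rare transcripts, and p-values measure the spread between these samples, which are pools. Genes, lists and tests were chosen with earlier results of these data known.

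No sign was seen that replicate numbers pair the samples, though so few pairs cannot exclude it. Deviations from the stage means correlated by -0.0341 on average over 9 same-numbered pairs (-0.256 to 0.216) and by 0.0178 over 18 others (-0.168 to 0.152). No 2 samples of a stage agreed within sampling noise. Protein identity between relatives, though planned, was not computed here.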

Additional observations from a re-analysis of the deposited data

How the results depend on the processing

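Of the 90 log2 fold changes tested for the 30 genes, 42 were called, of which 35 remained called whichever of the 9 samples was left out and 33 under all 18 alternatives that gave a value. The direction of a called gene changed in none of these. The number of ligands higher ranged from 10 to 12 at E14.5, was 12 throughout at E16.5 and ranged from 4 to 5 between the corneal stages with a sample left out. Ligands lower ranged from 0 to 1 against E10.5 at either stage with a sample left out. The 1 called was Wnt8b, which did not pass the filter on low counts with all samples. With no filter 2 ligands were lower, because Wnt8a and Wnt8b then entered the test. With no fold minimum, 1 ligand was lower at E16.5 than at E10.5 and 5 than at E14.5, where leaving out a sample gave 1 to 4 in place of 3. Receptors lower at E14.5 ranged from 1 to 4 in place of 1, with the most when E14.5 replicate 2 was left out. Those added were Fzd3, Fzd4 and Fzd9, of which Fzd9 did not pass the filter with all samples. Receptors lower at E14.5 were 0 by NOISeq and by limma on log2(FPKM + 1). They were 2 by limma on log2(FPKM + 0.1), 2 with no filter and 6 with no fold minimum. Receptors higher at E14.5 ranged from 1 to 2, with the lower count without E14.5 replicate 3. Receptors higher in the E16.5 cornea than in the pNC ranged from 1 to 2 and were 1 by NOISeq, both limma settings and without TMM. Receptors lower there ranged from 4 to 6, where those added were Fzd9 and Fzd2, and were 8 with no fold minimum. Between the corneal stages, receptors lower ranged from 1 to 2 and were 2 without TMM and by limma on log2(FPKM + 0.1), and 4 with no fold minimum.

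Rescaling FPKM to the TPM scale gave ligand totals of 133, 1060.5 and 1328 and receptor totals of 554, 589.8 and 568 by stage, and TMM factors moved the E16.5 totals to 585 and 249.7. The ratio of ligand to receptor totals was 0.159, 1.19 and 1.54 by counts without length scaling. The ligand total with a sample left out ran from 58.4 to 63.3, 394 to 491 and 523 to 558 FPKM.

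Signs changed only for fold changes that were not called. Wnt6 between the corneal stages was -0.0319 by NOISeq, -0.0328 without TMM and -0.0027 and -0.0029 by limma with 0.1 and 1 added, and it ran from -0.0234 to 0.351 with a sample left out. Lrp5 at E16.5 against E10.5 was -0.064, -0.0667, -0.0367 and -0.0362 under these settings and -0.0881 to 0.253 with a sample left out, and between the corneal stages it was -0.0384, -0.0394, -0.0331 and -0.0316. With a sample left out, the E14.5 values against E10.5 ran from -0.189 to 1.79 for Wnt16, from -0.342 to 0.136 for Ror1, from -0.099 to 0.128 for Fzd8 and from -0.211 to 0.131 for Lrp5. Between the corneal stages Lrp6 ran from -0.135 to 0.0574 and Ror2 from -0.350 to 0.103. Wnt16 was negative without E14.5 replicate 1 and was called without replicate 2. The cause of these changes was not tested.

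With the replicate number as a block, 11 and 12 ligands were higher at E14.5 and E16.5 than at E10.5, as without it, and no call of any of the 30 genes changed. The numbers are not known to pair the samples. Depth limits Wnt1, Wnt8a, Wnt8b, Fzd9 and Wnt7a, which had at most 25 expected counts in a sample.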
